A study of Mus musculus with 6 samples.

Results

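The guanylate-binding proteins (GBPs) are described here in mouse leukaemia cells, as the 8 genes Gbp2, Gbp3, Gbp4, Gbp5, Gbp6, Gbp7, Gbp8 and Gbp9. They were taken by name from a table of read counts that holds 27179 genes, and all 8 were found in it. The table holds 6 RNA sequencing libraries of cells positive for green fluorescent protein, sorted alive from the spleen of C57BL/6 mice. All 6 are labelled A/E9a;NRASG12D;Ifnar1-/-, so both groups carry the A/E9a fusion oncogene, the activated NRASG12D and, as labelled, lack Ifnar1, which encodes 1 chain of the receptor for type I interferon. The groups were treated for 3 days with vehicle or with panobinostat, a drug that blocks histone deacetylases, with 3 libraries each. Libraries are named by group and by the number in the table's column names, which is not tied to the replicate numbers of the labels. The labels call the cells leukemia cells only. In them Kit, the stem cell factor receptor, was at 121 to 266 CPM (counts relative to library size), and Itgam, a chain of the myeloid integrin CD11b, at no more than 0.663 CPM. Cd68, a macrophage marker, reached 12.3 CPM. Mast cell and basophil markers were also counted, the highest being Il1rl1 at 759 to 1217 CPM and Ms4a2 at 238.6 to 694.5 CPM. Others of that list were scarce. Mcpt8 was at 0 to 3.445 CPM and Tpsab1 at 0.4059 to 15.5 CPM, each highest in panobinostat library 1. Erythroid markers were counted as well, with Gata1 at 199 to 328 CPM and Hba-a2 at 856 to 11000 CPM. Library totals ran from 31989622 to 35962605 counts. Values for single libraries are given in the order 1, 2 and 3. The labels do not state whether a group's libraries derive from different mice, and the p-values therefore describe the spread between libraries, part of which may be technical.

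GBPs are large GTPases of the dynamin superfamily that assemble on the membranes of vacuoles and on bacteria inside cells, where they help to break the pathogen's shelter and to start inflammasome signalling. Their genes are classical targets of interferon-gamma, which acts through the Ifngr1 and Ifngr2 receptor chains, JAK kinases and the factor IRF1, and they also respond to type I interferon. In the mouse the genes lie in a cluster on chromosome 3 and another on chromosome 5. Some members, Gbp2 and Gbp5 among them, end in a signal for the attachment of a lipid that anchors them to membranes.

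In this comparison the 8 members divided by their position in the genome. The 4 members on chromosome 3 (Gbp2, Gbp3, Gbp5 and Gbp7) were higher in every panobinostat library than in every vehicle library, and the 4 members on chromosome 5 (Gbp4, Gbp6, Gbp8 and Gbp9) were lower in every panobinostat library than in every vehicle library. Over all 13207 genes tested, groups did not overlap in 7.43% of genes, with panobinostat higher in 3.79% and lower in 3.63%. No member passed the threshold of an adjusted p under 0.05 in edgeR's quasi-likelihood test, which called 0 of all genes tested, that is 0% of them. An unadjusted p under 0.05 was reached by 5 of the 8 members and by 301 genes in all, 2.28% of those tested. DESeq2 and limma-voom also called 0 members, while over all genes DESeq2 called 9 (0.0681%) and limma-voom 0. The split by chromosome was made after the values were seen and is a description. It holds for the 8 members named. Of the other GBP genes, Gbp10 and Gbp11 on chromosome 5 had overlapping groups, and Gbp2b on chromosome 3 did not.

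Sequence upstream of the chromosome 3 members is shown because interferon control of this family is usually read from it. RefSeq promoter windows of build GRCm38.p6 were matched by gene for Gbp2, Gbp3, Gbp5, Gbp7 and the neighbouring Gbp2b, and not for Gbp4, Gbp6, Gbp8 and Gbp9. The 250 bases before the annotated start are printed 5′ to 3′ on the plus strand, and capitals mark every match to the core of the interferon-stimulated response element, GAAANNGAAA, on either strand, with overlapping matches joined.
Gbp5, chr3:142496684-142496933: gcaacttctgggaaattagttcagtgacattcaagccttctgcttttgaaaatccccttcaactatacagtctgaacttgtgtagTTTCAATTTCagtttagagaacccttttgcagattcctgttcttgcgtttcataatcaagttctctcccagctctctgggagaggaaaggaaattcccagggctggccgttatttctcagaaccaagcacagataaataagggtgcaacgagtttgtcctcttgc
Gbp7, chr3:142530086-142530335: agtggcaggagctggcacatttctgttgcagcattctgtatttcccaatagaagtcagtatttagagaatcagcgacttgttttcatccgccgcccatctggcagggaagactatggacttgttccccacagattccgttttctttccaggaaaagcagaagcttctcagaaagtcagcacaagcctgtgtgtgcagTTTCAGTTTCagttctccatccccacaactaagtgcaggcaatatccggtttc
Gbp3, chr3:142559794-142560043: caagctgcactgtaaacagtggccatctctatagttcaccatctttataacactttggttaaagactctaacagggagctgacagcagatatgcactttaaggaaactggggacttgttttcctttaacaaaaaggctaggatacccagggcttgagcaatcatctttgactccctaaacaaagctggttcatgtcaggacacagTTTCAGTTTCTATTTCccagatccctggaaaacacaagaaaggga
Gbp2, chr3:142620413-142620662: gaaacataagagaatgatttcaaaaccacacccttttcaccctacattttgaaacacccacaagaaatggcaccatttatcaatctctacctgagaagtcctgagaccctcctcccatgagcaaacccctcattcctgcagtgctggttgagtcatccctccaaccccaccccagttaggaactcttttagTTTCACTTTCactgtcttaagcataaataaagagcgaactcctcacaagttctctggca

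Each of these windows held 1 run of matches. It began 165 bases before the start in Gbp5, 53 in Gbp7, 45 in Gbp3 and 59 in Gbp2, and the window of Gbp2b held 1 as well. A second annotated start of Gbp3 had no match in its window. Of all 32851 RefSeq windows of this length, 2.98% held the motif. The gamma-activated site TTCNNNGAA, which reads the same on both strands, was present in 7.02% of windows, at 2 places each in Gbp5 and Gbp7, none of them overlapping the capitals, and it was not found in the windows of Gbp3 and Gbp2. Genes with the interferon-stimulated core were also described as a group. Among 317 tested genes with it the median log2 fold change was 0.014, and 18 (5.68%) had panobinostat libraries all above vehicle libraries. These 18 include the 4 chromosome 3 members themselves, so the share is not separate from the values of the family. Among 9813 tested genes with any window these values were 0.0022 and 3.98%. A match is a run of letters and not a measured binding site.

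Gbp7 was the most abundant member, and its transcript carried most of the family's reads. The protein is known for delivering antimicrobial factors to vacuoles. Gbp7 (Entrez gene 229900, chromosome 3, 142530336 to 142550151, GRCm38) was at 61.3, 40.5 and 33.5 across vehicle and 95.4, 82.7 and 79.1 across panobinostat libraries, in CPM. All panobinostat libraries lay above vehicle library 1, the highest of its group. Means were 45.1 ± 14.5 and 85.8 ± 8.52 CPM (SD, n = 3), and edgeR's log2 fold change was 0.93 (SE 0.233, 95% interval 0.36 to 1.49, unadjusted p 0.00664, adjusted p 0.998). Gbp7 made up 82.6 to 88.7% of the summed CPM of the chromosome 3 members.

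Gbp2, which coats vacuoles and bacteria and is needed against Toxoplasma, showed the highest fold change of the family. Gbp2 (Entrez gene 14469, chromosome 3, 142620663 to 142638008) was at 3.38, 2.09 and 1.02 CPM across vehicle and 6.70, 6.38 and 6.14 CPM across panobinostat libraries. The panobinostat libraries lay close together, whereas the vehicle libraries were spread out. Its log2 fold change was 1.57 (SE 0.435, 95% interval 0.52 to 2.61, unadjusted p 0.0102, edgeR adjusted p 0.998).

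Gbp5, which promotes inflammasome assembly, differed from the other chromosome 3 members in vehicle library 1. Gbp5 (Entrez gene 229898, chromosome 3, 142496934 to 142522344) was at 1.64, 2.47 and 2.49 CPM across vehicle and 8.39, 5.25 and 3.79 CPM across panobinostat libraries. Vehicle library 1 was the lowest of all for Gbp5 and the highest of its group for Gbp2, Gbp3 and Gbp7. Panobinostat library 1 stood well above the other panobinostat libraries. The log2 fold change was 1.40 (SE 0.368, 95% interval 0.51 to 2.29, unadjusted p 0.00801, edgeR adjusted p 0.998).

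Gbp3 (Entrez gene 55932, chromosome 3, 142560016 to 142573213) is a further member of the cluster that is recruited to pathogen vacuoles. It was at 2.78, 1.23 and 1.71 CPM across vehicle and 4.97, 5.001 and 4.06 CPM across panobinostat libraries. The groups did not overlap, and the log2 fold change was 1.29 (SE 0.353, 95% interval 0.44 to 2.15, unadjusted p 0.00946, edgeR adjusted p 0.998). Gbp2b, the mouse gene once named Gbp1, lies between Gbp3 and Gbp2 and is not among the 8 members. It had 2, 2 and 0 counts across vehicle and 12, 9 and 11 counts across panobinostat libraries, too few for the filter on low counts.

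**Figure D1:**
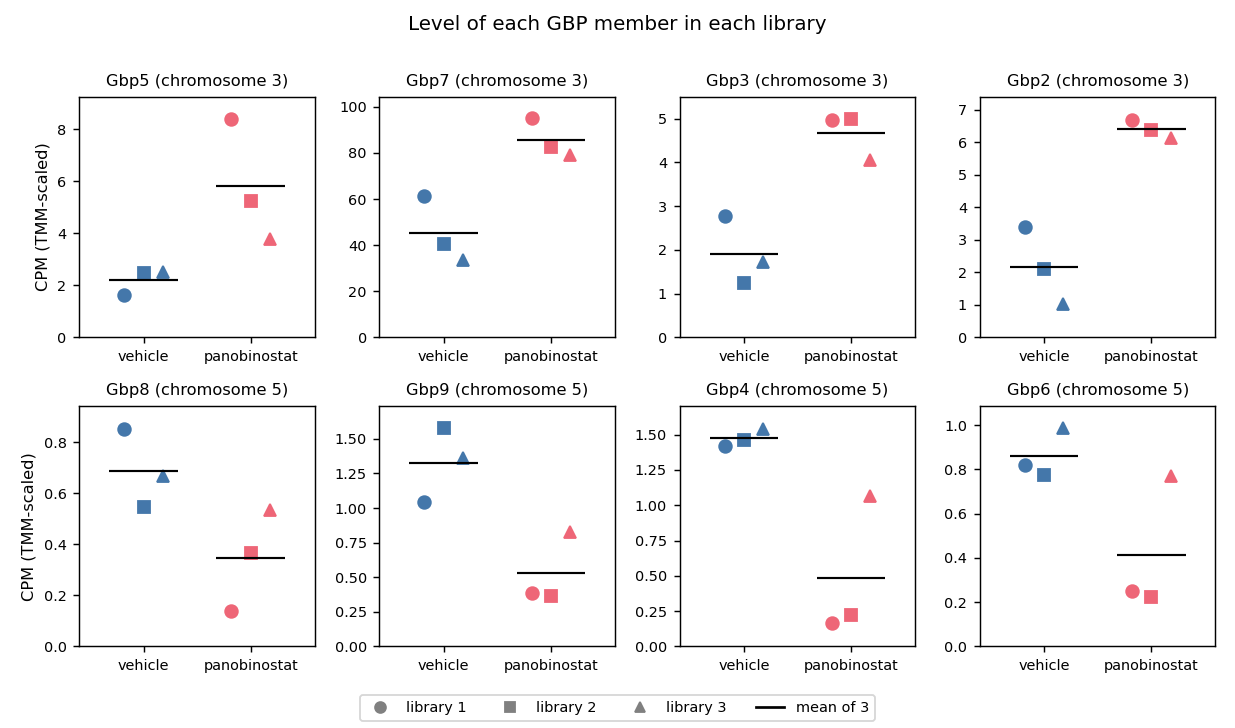
Level of each of the 8 GBP members in CPM, on axes that start at 0 and differ between panels, in the 3 vehicle (blue) and 3 panobinostat (red) libraries, with symbols for the library number and a line at the mean. In the upper row, the chromosome 3 members, all red points lie above all blue points, and in the lower row, the chromosome 5 members, all red points lie below all blue points, with panobinostat library 3 nearest to vehicle.

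The chromosome 5 members were scarce in all 6 libraries. Their summed level was 4.14, 4.36 and 4.55 CPM across vehicle and 0.945, 1.18 and 3.20 CPM across panobinostat libraries. Panobinostat libraries 1 and 2 were low, and library 3 lay nearer to vehicle. For comparison, a gene with 0 counts allows up to 3 counts, which is 0.0834 to 0.0947 CPM. All 4 passed the filter on low counts in every vehicle library. In the panobinostat group Gbp4 and Gbp6 reached its cutoff in 1 library, Gbp8 in 2 and Gbp9 in 3, so for the first 3 the filter was met mainly through the group where they were higher.

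Gbp4, which has been described as a brake on the antiviral factor IRF7, had the lowest fold change of the family. Gbp4 (Entrez gene 17472, chromosome 5, 105115767 to 105139586) had 45, 51 and 53 counts in vehicle libraries 1, 2 and 3, or 1.42, 1.46 and 1.54 CPM, and 6, 8 and 36 counts in panobinostat libraries 1, 2 and 3, or 0.167, 0.225 and 1.07 CPM. The vehicle libraries agree within counting error, and panobinostat library 3 stood well above panobinostat libraries 1 and 2. The log2 fold change was -1.60 (SE 0.720, 95% interval -3.34 to 0.14, unadjusted p 0.0658, edgeR adjusted p 0.998).

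Gbp9 was the member of this cluster with an unadjusted p under 0.05. Gbp9 (Entrez gene 236573, chromosome 5, 105076464 to 105110357), another member found on Toxoplasma vacuoles, was at 1.04, 1.58 and 1.36 CPM across vehicle and 0.389, 0.365 and 0.830 CPM across panobinostat libraries. Its log2 fold change was -1.33 (SE 0.445, 95% interval -2.40 to -0.25, unadjusted p 0.0227, edgeR adjusted p 0.998).

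In all 4 chromosome 5 members the nearest libraries of the groups lay within each other's counting error. For Gbp4 these were panobinostat library 3 with 36 counts (exact 95% Poisson interval 25.2 to 49.8 counts) and vehicle library 1 with 45 (32.8 to 60.2), and for Gbp9 panobinostat library 3 with 28 counts (18.6 to 40.5) and vehicle library 1 with 33 (22.7 to 46.3). Gbp6 (Entrez gene 100702, chromosome 5, 105270702 to 105295871), which also loads onto pathogen vacuoles, was at 0.821, 0.774 and 0.986 CPM across vehicle and 0.250, 0.225 and 0.771 CPM across panobinostat libraries. Panobinostat library 3 at 26 counts (17.0 to 38.1) and vehicle library 2 at 27 counts (17.8 to 39.3) could not be told apart at this depth. Gbp8 (Entrez gene 76074, chromosome 5, 105012513 to 105053609) was at 0.853, 0.545 and 0.667 CPM across vehicle and 0.139, 0.365 and 0.534 CPM across panobinostat libraries. Its nearest libraries were vehicle 2 with 19 counts and panobinostat 3 with 18 counts. Log2 fold changes were -1.05 (SE 0.559) for Gbp6 and -0.99 (SE 0.545) for Gbp8, with unadjusted p of 0.107 and 0.117 and edgeR adjusted p of 0.998. The intervals and the limit for 0 counts hold for counting error alone, because copies of 1 molecule were not marked and may be counted more than once.

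Some of these counts may be shared between near-identical genes. Of the 50-base stretches in Gbp6 transcripts, 70.65% also occur in another gene, 64.98% in Gm43302, whose exons overlap those of Gbp6 on the same strand, and 45.95% in Gbp10 (GENCODE M21 transcripts). Of those in Gbp10 73.3% occur in Gbp6. In the GENCODE M21 annotation exons of Gbp4, Gbp8 and Gbp9 also overlap one another on the same strand, although the gene spans printed above do not. How reads matching several genes were counted, and with which annotation, is not given in the sources used here. The level of Gbp6 in particular, and to a lesser degree those of Gbp4, Gbp8 and Gbp9, are therefore uncertain. Gbp10, not among the 8 members, was at 0.726, 0.574 and 0.696 CPM across vehicle and 0.250, 0.253 and 0.682 CPM across panobinostat libraries, with panobinostat library 3 again the highest of its group. Its groups overlapped. In the 7 other members 1.44 to 18.1% of such stretches occurred in another gene, the highest share being that of Gbp8. The transcribed pseudogene Gbp11 averaged 0.459 ± 0.100 CPM across vehicle and 0.438 ± 0.0663 across panobinostat libraries (SD, n = 3), with a log2 fold change of -0.066 (SE 0.378, edgeR adjusted p 0.998).

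**Figure D2:**
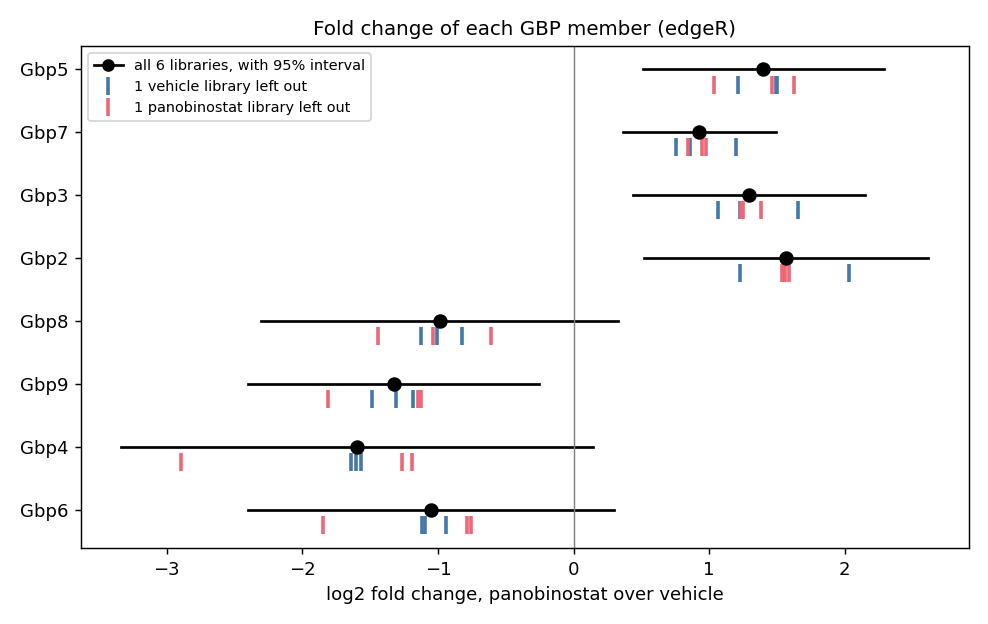
Log2 fold change of panobinostat over vehicle for each GBP member in edgeR, with all 6 libraries (black point and 95% interval) and with 1 vehicle (blue) or 1 panobinostat (red) library left out in turn. Every estimate of Gbp5, Gbp7, Gbp3 and Gbp2 lies above 0 and every estimate of Gbp8, Gbp9, Gbp4 and Gbp6 below 0. The groups did not overlap in any of these members, so the kept side was largely fixed in advance. Gbp4 lies farthest out, at -2.89, when panobinostat library 3 is left out.

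Single libraries carried part of these differences. Vehicle library 1 stood apart in the table as a whole: across genes, its log2 CPM correlated less with the other vehicle libraries (Pearson r 0.942 and 0.941) than with panobinostat libraries 2 and 3 (0.976 and 0.984). Without it edgeR called 324 genes, 2.42% of those tested, and 1 of them was a member, Gbp7, with a log2 fold change of 1.201 and an adjusted p of 0.0268. Gbp2 and Gbp3 then had log2 fold changes of 2.03 and 1.65, with edgeR adjusted p of 0.0543 and 0.0538. Without both libraries numbered 1, a choice made with earlier results known, 1590 genes were called (12%), among them Gbp7, Gbp2 and Gbp3 with edgeR adjusted p of 0.00337, 0.0200 and 0.0232. In that fit the log2 fold change of Gbp5 moved from 1.40 to 0.86 (edgeR adjusted p 0.0987) and that of Gbp8 from -0.99 to -0.44 (adjusted p 0.611). Leaving out any one of the other 5 libraries gave 0 members called, and 0 genes called over all genes tested. Without panobinostat library 3 the log2 fold change of Gbp4 moved from -1.60 to -2.89 and that of Gbp6 from -1.05 to -1.85. Without panobinostat library 1 that of Gbp8 moved from -0.99 to -0.61.

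Per length of transcript, Gbp7 stood far above the rest of the family in both groups. On the scale of CPM per kilobase of exon (FPKM), with exon lengths from GENCODE M21, Gbp7 was at 8.03 ± 2.58 across vehicle and 15.3 ± 1.52 across panobinostat libraries (SD, n = 3). Gbp2 followed at 0.859 ± 0.470 and 2.54 ± 0.112 FPKM, then Gbp3 at 0.584 ± 0.242 and 1.43 ± 0.164 and Gbp5 at 0.332 ± 0.0729 and 0.876 ± 0.354. In vehicle libraries the levels of Gbp2 and Gbp3 overlapped, and so did those of neighbours in the order Gbp5, Gbp9, Gbp8 and Gbp4. In panobinostat libraries Gbp3 overlapped with Gbp5, and the 4 chromosome 5 members, with means from 0.0649 to 0.102 FPKM, overlapped with each neighbour in the order. The ratio of the summed CPM of the chromosome 3 members to that of the chromosome 5 members, which does not depend on library scaling, was 16.7, 10.6 and 8.50 across vehicle and 122, 84.2 and 29.1 across panobinostat libraries.

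In the genes that flank the clusters the groups overlapped. The family spans 141 kb on chromosome 3 and 334 kb on chromosome 5, and no other tested gene with a symbol lies inside either span. The nearest tested neighbours on chromosome 3, Pdlim5 and Kyat3, had log2 fold changes of 0.15 (SE 0.187) and 0.45 (SE 0.617). On chromosome 5 Abcg3 and Lrrc8b had -0.25 (SE 0.612) and 0.60 (SE 0.395), each with an edgeR adjusted p of 0.998. Farther out on chromosome 5, Lrrc8d had a higher estimate, 1.73 (SE 0.785, edgeR adjusted p 0.998). It was at 1.26, 3.47 and 1.86 CPM across vehicle and 2.14, 15.3 and 4.45 CPM across panobinostat libraries.

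Most markers of lymphocytes were, like the chromosome 5 members, low in panobinostat libraries 1 and 2. All 15 B cell markers were counted, and Pax5 and Vpreb3 were at 0 in panobinostat library 1. All 14 tested B cell markers and all 14 tested T cell markers had lower estimates with panobinostat, and 0 were called. The 15 B cell markers summed to 59.3, 128 and 87.2 CPM across vehicle and 10.6, 26.4 and 70.8 CPM across panobinostat libraries. The 15 T cell markers summed to 23.6, 25.3 and 21.8 CPM across vehicle and 12.7, 14.2 and 21.0 CPM across panobinostat libraries. Cd5 and Cd8b1 were at 0 in panobinostat library 1. Cd247 alone made up much of the T cell sum, at 5.999, 8.745 and 8.495 CPM across vehicle and 10.09, 7.473 and 5.572 CPM across panobinostat libraries. It was highest in panobinostat library 1, unlike the rest of the list, and its log2 fold change was -0.00675. Panobinostat libraries 1 and 2, where Gbp4, Gbp6 and Gbp9 were lowest, were thus also the lowest for both lists, and panobinostat library 3 stood near vehicle. This order was not particular to lymphocytes. The median of log2 CPM, each gene centred over the 6 libraries, was -0.66, -0.43 and 0.30 across panobinostat libraries for dendritic cell markers. It was -0.50, -0.23 and 0.62 for monocyte and macrophage markers. Across vehicle it was 0.33, 1.30 and 0.78 for B cell markers and 0.66, 0.67 and 0.73 for the chromosome 5 members. Panobinostat library 3 had more B cell marker CPM than vehicle library 1, less T cell marker CPM and less of the chromosome 5 members (3.20 against 4.14 CPM). In such bulk samples fewer cells of a type and less RNA per cell cannot be told apart. The libraries are labelled as sorted for green fluorescent protein, and the part of lymphocytes in these values was not tested.

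**Figure D3:**
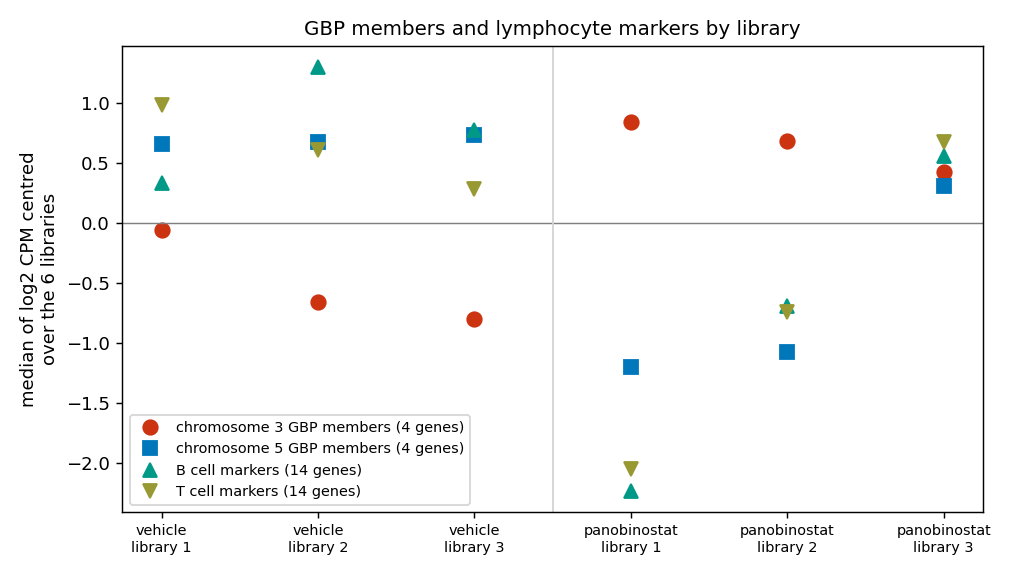
Median of log2 CPM, each gene centred over the 6 libraries, for the 4 chromosome 3 members (red circles), the 4 chromosome 5 members (blue squares), 14 tested B cell markers (green triangles) and 14 tested T cell markers (olive triangles) in each library. In panobinostat libraries 1 and 2 the chromosome 5 members (-1.20 and -1.08) lie low with both marker lists and the chromosome 3 members (0.84 and 0.68) lie high, and in panobinostat library 3 all 4 lists lie above 0.

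Panobinostat library 1, with the lowest B and T cell sums, had the highest Gbp2, Gbp5 and Gbp7. That library also had the highest summed mast cell and basophil markers, 2549 CPM against 1293 to 1869 CPM across vehicle libraries and 1445 and 1590 CPM for the other panobinostat libraries. Of the 10 mast cell and basophil markers, all tested, 9 had higher estimates with panobinostat, 0 were called, and the median log2 fold change was 1.46, beside 1.35 for the chromosome 3 members. The median of their centred log2 CPM was -0.28, -0.43 and -1.29 across vehicle and 2.39, -0.21 and -0.087 across panobinostat libraries. Panobinostat library 1 was thus far above the rest, and panobinostat libraries 2 and 3 lay just above vehicle library 1. In these 2 libraries the chromosome 3 members were at 0.68 and 0.42. The groups did not overlap in 0 of the 10 markers, beside 4 of the 4 chromosome 3 members and 7.43% of all genes tested. Megakaryocyte markers summed to 176, 7.88 and 7.77 CPM across vehicle and 16.9, 80.8 and 112 CPM across panobinostat libraries. Monocyte and macrophage markers summed to 20.1 to 28.8 CPM in vehicle and 14.6 to 32.3 CPM in panobinostat libraries. Dendritic cell markers summed to 4.82 to 7.17 and 3.83 to 7.83 CPM, granulocyte markers to 2.84 to 5.74 and 0.917 to 4.16 CPM, NK cell markers to 1.39 to 27.9 and 2.02 to 4.20 CPM, and erythroid markers to 7556 to 23240 and 2748 to 22420 CPM. Single genes carried the highest NK cell and megakaryocyte sums, both in vehicle library 1. There Gzmb was at 15.47 and Nkg7 at 11.46 CPM, and Itga2b at 148.5 CPM. The part of the cells of any of these lists in the chromosome 3 values was not tested.

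The genes of the signals that induce the family are given next. Ifng, which encodes interferon-gamma itself, had 2 counts in 1 vehicle library and 0 in the other 5. Ifngr1, a chain of its receptor, averaged 11.2 ± 5.14 CPM across vehicle and 7.09 ± 2.02 across panobinostat libraries, and Ifngr2, the other chain, at 46.8 ± 4.91 and 43.3 ± 2.64 CPM (SD, n = 3). Ifnar1, the gene labelled as knocked out in both groups, was counted at 36.9 to 48.0 CPM in vehicle and 35.7 to 46.4 CPM in panobinostat libraries, which tests no label, since reads can come from undeleted exons. Irf1, a factor that drives GBP promoters, stood at 3.86 ± 1.25 and 4.39 ± 0.863 CPM (SD, n = 3). Of 14 tested genes of the 15 on this list 8 had a higher and 6 a lower estimate, 0 were called, as over all genes tested, and the median log2 fold change was 0.016, against 0.00090 over all genes tested. The highest estimate was that of Socs1, a feedback inhibitor of JAK kinases, at 1.07 (SE 0.851), and the lowest that of Irf8, a factor of B cells and macrophages, at -1.21 (SE 0.594), each with an edgeR adjusted p of 0.998. Irf8 was at 1.89, 2.92 and 2.26 CPM across vehicle and 0.333, 0.955 and 1.78 CPM across panobinostat libraries, with panobinostat library 3 again nearest to vehicle.

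The immunity-related GTPases (IRGs) act with GBPs on pathogen vacuoles, and autophagy proteins help to load both. Of 15 genes on this list 13 were tested, of which 7 had estimates above and 6 below 0, 0 were called, and the list had a median log2 fold change of 0.059. The near-identical Tgtp1 and Tgtp2 had the highest estimates, 1.25 (SE 0.390) and 1.27 (SE 0.386), with an edgeR adjusted p of 0.998, and their reads may be shared. Tgtp2 was at 16.1, 10.5 and 5.45 CPM across vehicle and 24.5, 30.4 and 22.6 CPM across panobinostat libraries, without overlap. Irgm1, a regulatory IRG, stood at 54.5 ± 6.62 and 67.6 ± 7.62 CPM and Igtp at 8.44 ± 2.89 and 10.7 ± 0.750 CPM (SD, n = 3). Gm12250, the gene of Irgb10, was at most 0.568 CPM. The lowest estimate was that of Gabarapl2, an autophagy protein of the ATG8 family, at -0.29 (SE 0.121).

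**Figure D4:**
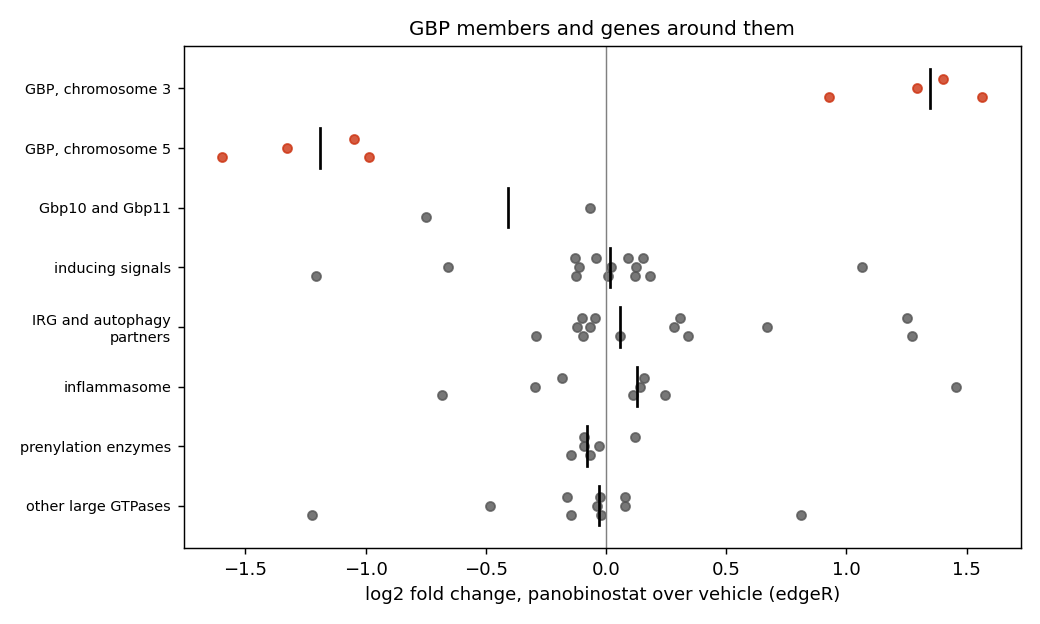
Log2 fold change of panobinostat over vehicle in edgeR for each tested gene of the GBP clusters (red) and of 6 further lists (grey), with a black line at the median of each list. The GBP members lie at -0.99 and below or 0.93 and above, and single genes of the other lists reach from -1.22 (Gvin1) to 1.46 (Il1b).

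Further lists cover genes that act downstream or on the proteins themselves, with 0 called, as over all genes tested. Casp4, which encodes caspase-11, the protease that GBPs help to activate, was at most 0.144 CPM, and Aim2, a DNA sensor, stood at 15.4 ± 7.90 and 18.3 ± 8.98 CPM (SD, n = 3). Gsdmd, the pore-forming gasdermin, averaged 40.6 ± 6.67 CPM across vehicle and 44.8 ± 8.84 across panobinostat libraries (SD, n = 3). Of 12 inflammasome genes 8 were tested, 5 higher and 3 lower, with estimates from -0.68 for Casp1 to 1.46 for Il1b and a median of 0.13. All 6 prenylation enzymes were tested, 1 higher and 5 lower, with a median of -0.077. Among them Fntb, a farnesyltransferase subunit, stood at 45.0 ± 7.91 and 40.6 ± 10.5 CPM and Pggt1b, a subunit of another prenyl transferase, at 27.6 ± 6.72 and 30.05 ± 1.70 CPM (SD, n = 3). Fnta and Zmpste24 had the smallest p of that list, with log2 fold changes of -0.092 and -0.090. Of 13 other large GTPases of the dynamin superfamily 10 were tested, 3 higher and 7 lower, with estimates from -1.22 (SE 0.558) for Gvin1 to 0.81 (SE 0.925) for Dnm1 and a median of -0.031. Mfn1, a mitochondrial fusion GTPase, had -0.15 (SE 0.109). Gvin1, an interferon-inducible giant GTPase, was at 6.38, 6.85 and 6.44 CPM across vehicle and 1.11, 2.02 and 5.31 CPM across panobinostat libraries, with panobinostat library 3 nearest to vehicle, as for the chromosome 5 sum.

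The genes whose profile over the 6 libraries was most like that of Gbp7 were sought among 10582 tested genes outside the family. Likeness was the root mean square difference of log2 CPM centred over the 6 libraries. The closest were Parp12 at 0.0952, C230062I16Rik at 0.1102, Mif at 0.111, Gm8762 at 0.125 and Plekha7 at 0.131. Parp12, a poly-ADP-ribose polymerase family member, was at 2.78, 1.95 and 1.59 CPM across vehicle and 4.70, 4.38 and 3.38 CPM across panobinostat libraries. The mean profile of all 8 members was nearly flat, because the clusters differ in opposite directions, and was closest to Zfp949, Wdr45, Npff, Fzr1 and Prcp at 0.0461 to 0.073. These likenesses are descriptions over 6 libraries and carry no test.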

How the data were processed

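RNA was sequenced from 6 libraries, 3 panobinostat and 3 vehicle, with library totals of 31989622 to 35962605 counts. The deposited file gives whole read counts for each Entrez gene with no normalization that the values show. The submitters' processing notes name HISAT2 2.1.0, cutadapt 2.1, featureCounts and Subread 2.0.0 among their tools and mm10 as the build. Options, annotation and strandedness were not given in the sources used here. Of 27179 identifiers 25275 matched a RefSeq symbol (GRCm38.p6).

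Counts as deposited went into edgeR 4.0.16 (R 4.3.3, filterByExpr with a minimum count of 10, TMM, robust quasi-likelihood F-test, two-sided) on the whole table, with Benjamini-Hochberg adjustment over the 13207 genes tested. The standard error was the log2 fold change divided by the square root of F. CPM and FPKM use TMM-scaled library sizes, and centred log2 CPM a prior count of 2. The test was tried on simulated counts. DESeq2 1.42.0 and limma-voom 3.58.1 were alternatives, beside other scalings, filters, no robust option, a replicate block, a threshold of 0.01 and each library left out.

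The members and lists were chosen with earlier results of these data known. The named genes are all GBP rows, 15 genes fixed by name, in each pathway list the highest, the lowest and the 2 with the smallest p, and the 5 genes most like Gbp7 and most like the members' mean. One gene fixed by name is not reported here. Tgtp2, Irf8 and Gvin1 fell under that rule, while the flanking genes were chosen after values were seen.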

Additional observations from a re-analysis of the deposited data

How the results depend on the processing

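Over 124 combinations of a member and an alternative, no member's estimate changed its sign. The groups did not overlap in any of the 8 members, so this was largely fixed in advance and adds no separate support. Of the combinations 4 newly passed the threshold (Gbp7 without vehicle library 1, and Gbp2, Gbp3 and Gbp7 without both libraries numbered 1). The other 120 stayed on the same side. Over all genes DESeq2 called 7 higher and 2 lower, leaving out 1 library gave 0 to 268 higher and 0 to 56 lower, and leaving out both libraries numbered 1 gave 974 higher and 616 lower. Members called higher were 0 to 1 with 1 library left out and 3 without both libraries numbered 1, and members called lower were 0 throughout. The median log2 fold change was 1.35 for the chromosome 3 members (1.145 to 1.485 with 1 library left out) and -1.19 for the chromosome 5 members (-1.83 without panobinostat library 3 to -0.97 without panobinostat library 1). The median over all 8 members, -0.030, was 0.21 without both libraries numbered 1 and 1.34 under a filter at a mean of 1 CPM, where the 4 chromosome 5 members were not tested. The median ran from -0.23 to 0.19 with 1 library left out. With the replicate block 0 genes were called and the family median was -0.059. Same-numbered libraries had deviations from their group means that correlated at -0.14, 0.072 and -0.20, so the numbers were not taken to pair the libraries. Depth limits the chromosome 5 members, with 5 to 55 counts per library.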

Other observations

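The mean profile of each cluster was also compared with other genes, a choice made after the values were seen. Closest to the chromosome 3 members were Parp12 at a root mean square difference of 0.185, Antxr2 at 0.186, Kcnj5 at 0.219, Lrp8 at 0.243 and Tnfrsf13b at 0.254, all on the centred log2 CPM scale over 6 libraries. Tnfrsf13b was at 2.21, 1.23 and 1.48 CPM across vehicle and 4.03, 2.70 and 3.23 CPM across panobinostat libraries. Closest to the chromosome 5 members were Wdfy4 at 0.184, Gvin1 at 0.215, Gm4070 at 0.256, Lsp1 at 0.269 and Ablim1 at 0.281. Wdfy4 was at 3.16, 4.13 and 3.86 CPM across vehicle and 0.722, 1.29 and 2.90 CPM across panobinostat libraries. In each of these last 5 genes panobinostat library 3 was the highest of its group. The same holds for the profile they were chosen by, so this trait came from the choice. No test was run on these likenesses.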
